A study of Mus musculus with 10 samples.

Results

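The hypoxia-inducible factor (HIF) pathway was followed at 8 genes in mouse retinal explants: Hif1a, Epas1, Arnt, Vegfa, Egln1, Egln3, Vhl and Bnip3. The genes were chosen by symbol, and every peak assigned to them was kept, 52 of 108253 peaks and 8 of 25400 genes in the RPKM table, with 9 of the 52 peaks in promoters (from 1000 bases before to 500 after a transcription start). The measurement was CUT&Tag, which maps a chromatin mark by directing a transposase to an antibody, for lactylation of histone H3 at lysine 18 (H3K18La) and acetylation at lysine 27 (H3K27Ac). C57BL/6J mice at postnatal day 28 gave whole neural retinas, freed of sclera and retinal pigment epithelium (RPE), which were cultured for 48 h in Neurobasal-A medium with B27 and N2 supplements at 5 or 25 mM glucose. H3K18La was profiled in 3 libraries per glucose level and H3K27Ac in 2, from 500000 dissociated cells each, all placed in 1 batch by the labels. Glucose, not oxygen, was the variable of the comparison. The explant lacked its pigment epithelium and blood supply, and all cell types entered a library together. The comparison asked how the supply of glucose, from which the retina makes lactate, changed the marks at these loci.

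HIF is a pair of proteins: an oxygen-labile alpha subunit, HIF-1 alpha (gene Hif1a) or HIF-2 alpha (gene Epas1), and a stable partner, ARNT. In the presence of oxygen, prolyl hydroxylases (PHD2, gene Egln1, and PHD3, gene Egln3) modify the alpha subunit, and VHL, the recognition subunit of a ubiquitin ligase, then marks it for destruction. When oxygen falls, the pair binds DNA at hypoxia response elements and switches on genes such as Vegfa, which encodes a growth factor for blood vessels, and Bnip3, which encodes a mitochondrial protein of the mitophagy pathway, together with Egln3 and most genes of glycolysis. In the retina HIF-1 alpha is known for its role in neurons and Müller glia, and HIF-2 alpha for its abundance in endothelium and glia.

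The sequence around these peaks was read first, since the pathway's own binding letters could be searched there. The core of a hypoxia response element is ACGTG or GCGTG. Both were searched on both strands, so that the palindrome CACGTG, which is also an E-box, counts once per strand. The set of RefSeq promoters used here (GRCm38.p6) held 7 of the 8 genes, and it lacked an entry for Epas1. A core was found in the 250 bases before the start for 6 of 8 member promoters, Vegfa having 2 starts, against 38.6% of 32851 promoters of that length. None was found at Vhl or at the Vegfa start that lies in a peak. The window of the other Vegfa start, which held a core, touched no Vegfa peak. The member promoters were also richer in GC, with a median of 60.8% against 52.4%. In the central 300 bases of the peaks it was found in 29 of 52 member peaks (55.8%), in 32.2% of all peaks, in 53.6% of promoter peaks and in 28.2% of other peaks, the kind to which 43 of the 52 belong. These are matches of letters and not sites of binding, and where none was found, only these letters are absent from the window.

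3 promoters were printed because they bound the range of the results below: Hif1a with the largest H3K18La change at locus level, Bnip3 with the most unequal changes of the 2 marks, and Egln3 with the weakest promoter peak in H3K27Ac. Capitals mark the core letters, 5′ to 3′ on the gene's strand, over the 250 bases before the start.
Hif1a (chr12:73907617-73907866, plus strand): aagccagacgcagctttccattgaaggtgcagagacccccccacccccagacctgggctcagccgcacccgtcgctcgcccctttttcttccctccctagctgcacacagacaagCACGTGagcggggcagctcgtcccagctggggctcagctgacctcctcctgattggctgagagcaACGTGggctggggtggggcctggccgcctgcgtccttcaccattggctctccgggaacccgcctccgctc
Bnip3 (chr7:138909507-138909756, minus strand): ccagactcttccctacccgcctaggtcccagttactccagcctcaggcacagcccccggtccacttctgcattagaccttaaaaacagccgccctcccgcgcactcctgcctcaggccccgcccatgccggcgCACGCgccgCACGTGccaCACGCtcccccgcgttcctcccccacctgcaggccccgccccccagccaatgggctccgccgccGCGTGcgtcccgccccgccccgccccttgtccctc
Egln3 (chr12:54203875-54204124, minus strand): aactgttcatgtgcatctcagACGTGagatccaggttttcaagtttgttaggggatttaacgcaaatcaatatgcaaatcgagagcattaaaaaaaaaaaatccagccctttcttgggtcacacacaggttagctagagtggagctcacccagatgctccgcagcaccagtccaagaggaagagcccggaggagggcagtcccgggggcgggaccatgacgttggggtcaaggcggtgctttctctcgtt
The Hif1a window held 3 matches, of which 2 were the strands of 1 CACGTG, and its GC content was 66.4%. The Bnip3 window held 5 matches, again with a CACGTG among them, at 72.4% GC. It also held 6 copies of the GC box GGGCGG on either strand, a motif found in 6 of 8 member promoters, with 7 copies each at Egln1 and Vhl, and in 32.7% of all promoters. The Egln3 window held 1 match and had the lowest GC content of the member promoters, 50.8%.

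3 peaks away from promoters were printed as their central 300 bases on the plus strand of GRCm38.p6, with the same capitals, CACGC and CACGT being the cores read on the other strand. They were the peak of highest RPKM among all 52, in Epas1 around exon 5, the Epas1 peak with the largest H3K18La change, in intron 1, and the strongest Egln3 peak, downstream of that gene.
Epas1 exon 5 peak (chr17:86810075-86810374): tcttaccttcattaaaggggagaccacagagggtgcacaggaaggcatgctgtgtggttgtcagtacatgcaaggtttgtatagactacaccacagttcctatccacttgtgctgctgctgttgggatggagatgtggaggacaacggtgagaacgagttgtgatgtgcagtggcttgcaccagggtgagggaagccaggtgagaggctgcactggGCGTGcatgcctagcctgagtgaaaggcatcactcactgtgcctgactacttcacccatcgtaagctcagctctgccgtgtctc
Epas1 intron 1 peak (chr17:86759503-86759802): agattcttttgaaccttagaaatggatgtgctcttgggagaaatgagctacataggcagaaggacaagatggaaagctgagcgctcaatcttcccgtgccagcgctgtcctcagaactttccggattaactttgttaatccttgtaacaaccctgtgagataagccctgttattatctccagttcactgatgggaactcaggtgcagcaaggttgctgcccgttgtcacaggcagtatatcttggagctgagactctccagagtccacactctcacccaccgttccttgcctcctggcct
Egln3 downstream peak (chr12:54164372-54164671): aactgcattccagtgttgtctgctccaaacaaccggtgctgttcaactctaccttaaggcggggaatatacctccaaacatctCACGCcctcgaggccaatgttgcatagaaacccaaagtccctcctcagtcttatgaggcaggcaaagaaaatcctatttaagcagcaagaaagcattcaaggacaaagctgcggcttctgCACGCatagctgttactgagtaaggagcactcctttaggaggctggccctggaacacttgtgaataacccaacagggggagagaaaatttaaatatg
The Epas1 exon 5 window, named for its peak, held 1 match and no exon base. The intron 1 window held no match and the Egln3 window held 2.

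Levels are RPKM, reads per kilobase of peak scaled to the reads of the library, so that they can be compared between genes. A locus is all peaks of a gene averaged, weighted by length. Depth was 1358008 to 7424470 reads per library. Reads in peaks made up 11.8 to 12.01% of the H3K18La libraries at 5 mM and 31.2 to 35.0% at 25 mM, and 21.1 to 31.5% and 56.5 to 69.5% of the H3K27Ac libraries. Most loci had a higher RPKM at 25 mM, with a median log2 change of 0.97 over 14877 H3K18La loci and 1.01 over 17544 H3K27Ac loci, and each change below is read against that median. The paper's methods name no spike-in for scaling. Its immunoblots, which measure the whole mark, showed no significant H3K27Ac change with high glucose, and its number of H3K27Ac peaks was lower at 25 mM. What set the difference in reads in peaks was not tested. H3K18La reads were few at these genes: the Hif1a peak had 3 to 15 reads per 5 mM library, Bnip3 4 to 18 and Vhl 1 to 5, whereas Epas1 had 78 to 307. Since the tissue was profiled in bulk, fewer cells of a type and less of a mark per cell cannot be told apart.

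**Figure D1:**
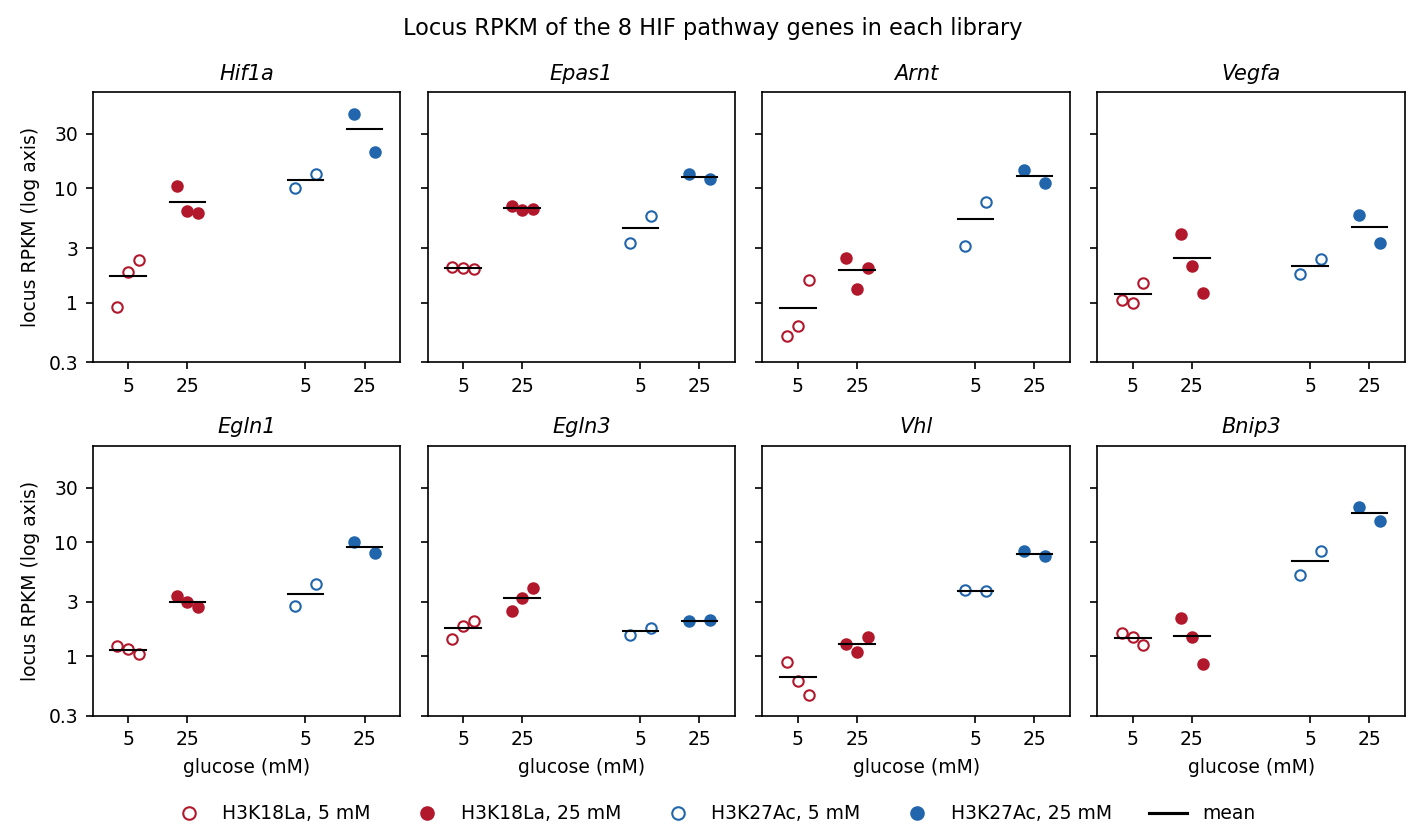
Locus RPKM (log axis) of each gene in each of the 10 libraries, with 5 mM as open and 25 mM as filled points and the group mean as a line. Epas1 and Hif1a separate most widely in H3K18La, whereas the H3K18La points of Bnip3 overlap at a mean of 1.45 and 1.49.

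Of the 8 loci, 7 had enough H3K18La signal for the test (mean RPKM of at least 1) and 4 of them, Hif1a, Epas1, Egln1 and Egln3, rose at 25 mM at an adjusted p below 0.05 in limma, a call that the same test gave for 57.0% of all loci. In H3K27Ac 7 of 8 rose, all but Egln3, against 62.2% of all loci. No member fell in either mark. The median log2 change of the tested members was 0.84 in H3K18La and 1.28 in H3K27Ac, beside 0.97 and 1.01 over all loci, with 3 of 7 and 5 of 8 members above that median. Every 25 mM library exceeded every 5 mM library at 4 of the 7 H3K18La loci tested and at all 8 H3K27Ac loci, an order shared by 67.4% and 85.4% of all loci.

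These counts, and the direction of some members, depended on the scaling. Scaling each library to its own reads in peaks shifted the median locus change by -1.07 in H3K18La and -1.11 in H3K27Ac, and centring each library on its own median shifted it by -0.85 and -1.02. Under the first no member locus passed in either mark, and under the second Epas1 alone passed in H3K18La (0.67, adjusted p = 0.0237) and none in H3K27Ac. These shifts are about as large as the median change, so the sign that is left mostly restates whether a locus lay above or below that median. With reads in peaks Hif1a was at 0.66 in H3K18La and 0.12 in H3K27Ac (adjusted p = 0.346 and 0.793) and Epas1 at 0.25 and 0.24 (adjusted p = 0.343 and 0.437). With centring Hif1a was at 1.05 and 0.34 (adjusted p = 0.0623 and 0.398), and Epas1 was at 0.41 in H3K27Ac (adjusted p = 0.209). Vegfa and Egln3 turned negative in both marks under both scalings, Arnt in H3K18La and Vhl in H3K27Ac under both, and Egln1 in H3K18La with reads in peaks. Without the minimum on RPKM none of the H3K27Ac members passed. In H3K27Ac, leaving out 5 mM replicate 1, 25 mM replicate 1 or 25 mM replicate 2 left no member past the threshold, and 7 passed without 5 mM replicate 2.

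**Figure D2:**
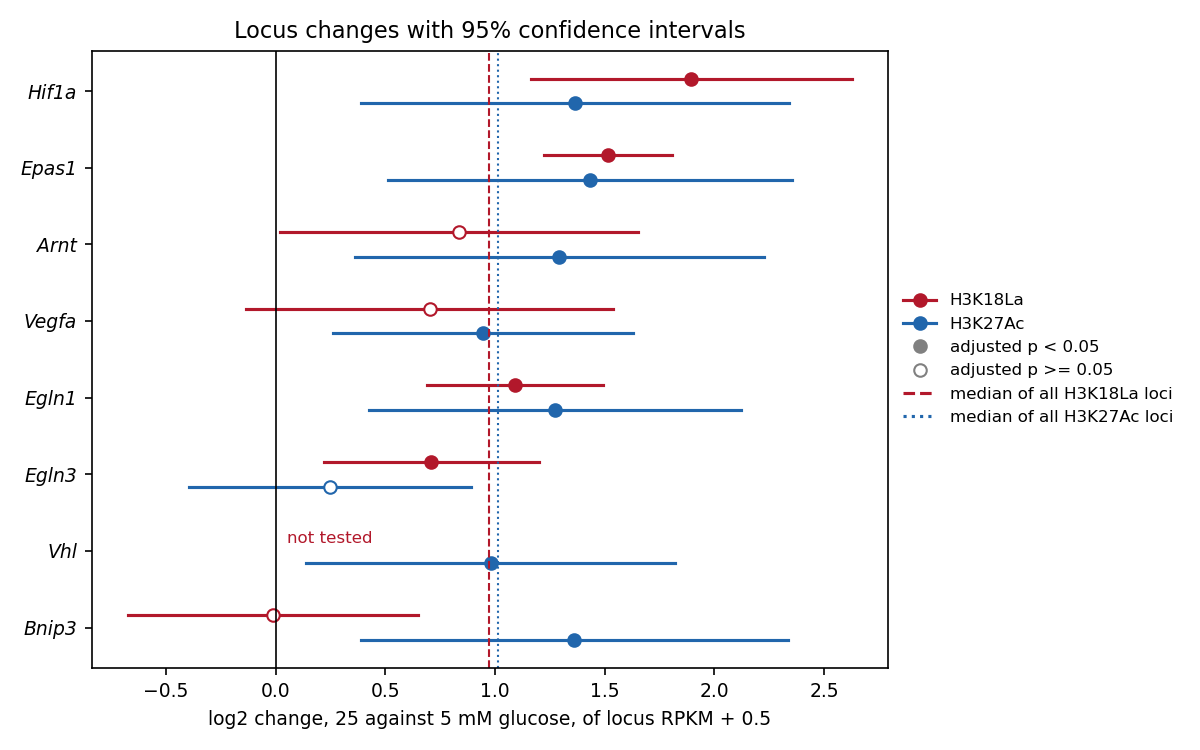
Change of each locus between 25 and 5 mM glucose, as the log2 difference of RPKM + 0.5 with its 95% confidence interval. Filled points passed the adjusted threshold, and the vertical lines at 0.97 and 1.01 are the medians of all H3K18La and H3K27Ac loci. In H3K18La the intervals of Hif1a and Epas1 lie above that median and the interval of Bnip3 below it.

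Among the members, Hif1a and Epas1 showed the largest H3K18La changes at locus level. Hif1a had a single peak, over its promoter at chr12:73907393-73908946, with the start of 2 of its transcripts inside and an overlap with the gene model Gm15283. Its H3K18La RPKM was 0.915, 1.86 and 2.37 in the 5 mM libraries and 10.5, 6.33 and 6.07 in the 25 mM libraries. All 25 mM libraries stood above all 5 mM libraries, with replicate 1 lowest at 5 mM and highest at 25 mM. The change was 1.89 on the log2 scale (SE 0.31, adjusted p = 0.00217), larger than at 95.4% of all loci, and stayed between 1.60 and 2.11 when single libraries were left out, with each of the 6 fits passing. H3K27Ac at the same peak was 10.1 and 13.4 at 5 mM and 44.6 and 21.1 at 25 mM. The 25 mM libraries differed from each other more than the 5 mM libraries did, and the change was 1.36 (SE 0.50, adjusted p = 0.0153). Among promoter peaks, Hif1a stood at the 83.9th percentile of H3K18La at 5 mM and the 93.3rd at 25 mM, and at the 96.8th and 95.3rd of H3K27Ac.

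Epas1 (chr17:86753700-86833410, plus strand) was the member with the most peaks. Its 25 peaks covered 29205 bases of sequence, from 24.5 kb upstream to 72.9 kb downstream of its start. The locus RPKM of H3K18La was 2.05, 2.03 and 1.97 at 5 mM and 6.97, 6.45 and 6.64 at 25 mM. H3K18La replicates lay closer together, relative to their mean, than at any other member, and the change was 1.51 (SE 0.12, adjusted p = 0.000211). H3K27Ac was 3.31 and 5.77 at 5 mM and 13.4 and 11.99 at 25 mM, a change of 1.43 (SE 0.47, adjusted p = 0.0081). Among loci with a like number of peaks, 20 to 30, 89.2% rose in H3K18La and 57.8% in H3K27Ac, with median changes of 1.15 and 0.87.

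Within Epas1 the H3K18La rise spread over the whole locus. Of its 25 peaks 20 rose in H3K18La and 15 in H3K27Ac, beside 37.3% and 33.9% of all peaks tested. Every 25 mM library exceeded every 5 mM library at 22 and 23 of the 25, beside 53.4% and 69.3% of all peaks tested. Changes ran from 0.89 to 2.69 in H3K18La and from 0.42 to 2.14 in H3K27Ac. The strongest peak lay at exon 5 of 16 (chr17:86809091-86811357), 55.4 kb into the gene, where 325 of its 2267 bases are coding and the rest intron, and it was chosen after its values were seen. It held 14.1 to 24.8% of the H3K18La reads and 26.3 to 35.3% of the H3K27Ac reads of the locus. Its H3K18La was 5.86, 5.36 and 3.57 at 5 mM and 22.2, 19.2 and 17.0 at 25 mM, a change of 1.90 (SE 0.25, adjusted p = 0.000522). Its H3K27Ac was 11.2 and 26.2 at 5 mM and 58.9 and 50.0 at 25 mM, a change of 1.63 (SE 0.55, adjusted p = 0.0156). At 5 mM its H3K27Ac libraries were farther apart than at 25 mM, without reaching them.

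The largest H3K18La rise among Epas1 peaks was in intron 1, 5.55 kb from the start (chr17:86759251-86760054). Its H3K18La was 2.36, 3.12 and 0.916 at 5 mM, from 1 to 13 reads per library, and 19.6, 15.0 and 12.2 at 25 mM, a change of 2.69 (SE 0.37, adjusted p = 0.000621). Its H3K27Ac was 5.75 and 9.01 at 5 mM and 39.4 and 28.3 at 25 mM, a change of 2.14 (SE 0.51, adjusted p = 0.00124). The promoter peak (chr17:86752851-86755570) was weaker than both. Its H3K18La was 1.57, 2.27 and 1.62 at 5 mM and 5.61, 5.79 and 5.08 at 25 mM, a change of 1.38 (SE 0.33, adjusted p = 0.00851), and its H3K27Ac 3.49 and 4.14 at 5 mM and 17.0 and 12.8 at 25 mM, a change of 1.83 (SE 0.47, adjusted p = 0.00247).

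The marks had their highest Epas1 peaks in common. Mean RPKM over the 25 peaks correlated between the marks with Pearson's r = 0.78 and Spearman's rho = 0.56 at 5 mM, and 0.93 and 0.74 at 25 mM, a description across peaks of the same libraries that share depth. In the 5 intergenic peaks upstream, mean H3K18La at 25 mM was 3.41 to 7.22 and mean H3K27Ac 1.52 to 3.30, and 4 of the 5 rose in H3K18La and 1 in H3K27Ac. The glucose groups did not overlap at 4 of the 5 in each mark, and the median changes were 1.34 and 0.88. In the 13 peaks of intron 1, the ranges were 3.82 to 15.6 and 4.93 to 33.9, with 10 rising in each mark. Neither the difference between the marks at these peaks nor that between upstream and intronic peaks was tested.

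**Figure D3:**
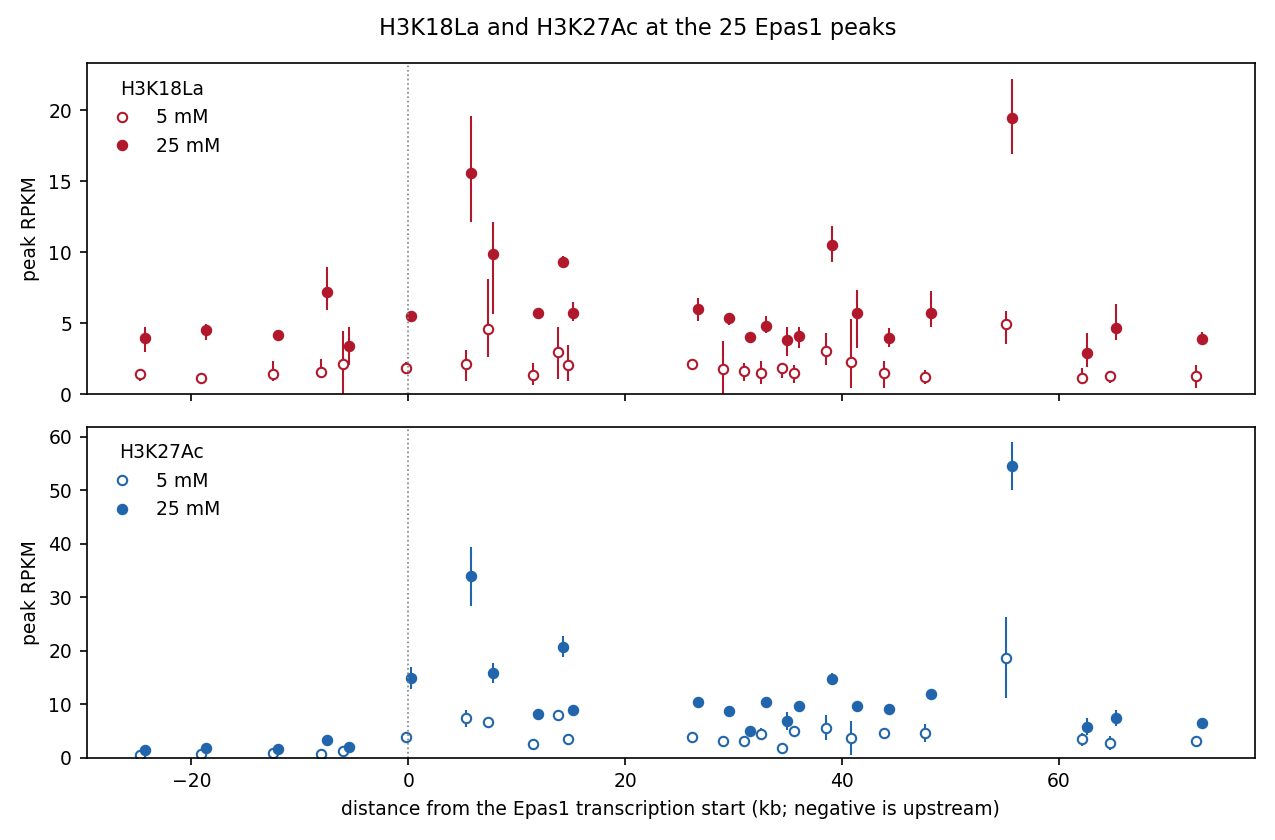
Peak RPKM at the 25 Epas1 peaks by distance from the transcription start in kb, with means as points, the lowest and highest library as bars, 5 mM open and 25 mM filled. The highest points in both marks are the exon 5 peak at 55.4 kb, with means of 19.5 and 54.5 at 25 mM, followed by the intron 1 peak at 5.55 kb.

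Of 5 markers of endothelium, where HIF-2 alpha is abundant, 4 had a peak and 3 were tested, and none of these passed upward in either mark. In H3K18La their median change was 0.36, and in H3K27Ac it was -0.60. Cldn5, a tight junction gene, fell by 0.87 on the log2 scale in H3K27Ac (adjusted p = 0.0242), as did 49 of 17544 loci in all. That fall rested on 7 to 17 reads per 5 mM library and 4 to 10 per 25 mM library. Pecam1, an adhesion molecule of endothelium, went from a mean of 0.922 to 1.63 in H3K18La without overlap of the groups (0.57, 95% interval 0.0081 to 1.14, adjusted p = 0.0747) and from 2.00 to 2.87 in H3K27Ac (0.44, adjusted p = 0.224). The summed RPKM of the 4 was 2.98 to 4.74 at 5 mM and 4.10 to 4.36 at 25 mM in H3K18La, and 5.79 to 8.71 and 4.09 to 6.26 in H3K27Ac. The counts of other marker genes are read beside the 57.0% and 62.2% of all loci that rose in H3K18La and H3K27Ac. Of 4 Müller glia genes 3 rose in H3K18La and 2 in H3K27Ac, with median changes of 0.98 and 0.90 beside 0.97 and 1.01 over all loci, and with summed RPKM of 2.02 to 5.35 at 5 mM and 8.07 to 11.99 at 25 mM in H3K18La and of 9.11 to 11.2 and 21.4 to 26.8 in H3K27Ac. All 5 rod genes rose in both marks, with median changes of 2.21 and 2.30, and their summed RPKM was 6.77 to 7.81 and then 30.3 to 63.8 in H3K18La and 27.2 to 46.1 and then 129 to 216 in H3K27Ac. Of the microglia and astrocyte genes, 1 of 2 tested and 2 of 2 rose in H3K18La, and 1 of 2 and none of 2 in H3K27Ac, and of the cone genes 2 of 3 and 2 of 2. Rpe65, which defines the removed pigment epithelium, had no read in its peak in any library, and Rgr, the other pigment epithelium gene with a peak and also a Müller glia gene, rose in both marks. The part of cell composition in the HIF gene changes was not tested.

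Arnt, the stable partner of both alpha subunits, had peaks at its promoter (chr3:95434034-95434854) and in intron 1. Its locus H3K18La was 0.509, 0.621 and 1.58 at 5 mM and 2.46, 1.32 and 1.99 at 25 mM. The groups overlapped through 5 mM replicate 3, and the change of 0.84 did not pass (SE 0.35, 95% interval 0.02 to 1.65, adjusted p = 0.0725), resting on 2 to 6 reads per 5 mM library. Its H3K27Ac was 3.10 and 7.61 at 5 mM and 14.5 and 11.2 at 25 mM, a change of 1.29 (SE 0.48, adjusted p = 0.016). That rise was at the promoter peak, where the change was 1.61 (SE 0.51, adjusted p = 0.0106), and the intron peak gave 0.37 with an adjusted p of 0.494. With single libraries left out, the H3K27Ac change was 0.71 to 1.88 at the locus and 1.02 to 2.19 at the promoter peak. H3K18La at the promoter peak changed by 1.13 (adjusted p = 0.0715) and passed in 2 of 10 other settings. Its groups did not overlap, with 1.79 the highest at 5 mM and 1.80 the lowest at 25 mM.

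The prolyl hydroxylase genes were close in H3K18La at 25 mM, where their ranges overlapped, and apart in H3K27Ac, where Egln1 was the higher in every library. Egln1 (PHD2, the main oxygen sensor of most cells) had 7 peaks and rose in both marks. Its locus H3K18La was 1.23, 1.16 and 1.04 at 5 mM and 3.36, 2.96 and 2.70 at 25 mM, a change of 1.09 (SE 0.17, adjusted p = 0.00172), near the median of all loci. Its H3K27Ac was 2.72 and 4.31 at 5 mM and 10.0 and 8.08 at 25 mM, a change of 1.27 (SE 0.43, adjusted p = 0.0101). The glucose groups overlapped in neither mark.

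Among the Egln1 peaks, the largest H3K18La rise was at an intergenic peak 14.0 kb upstream (chr8:124963279-124965296), with 1.88, 1.91 and 1.09 at 5 mM and 5.04, 6.70 and 5.18 at 25 mM, a change of 1.54 (SE 0.35, adjusted p = 0.00659). H3K27Ac there was 2.86 and 5.11 and then 7.99 and 7.61, a change of 0.93 that did not pass (adjusted p = 0.0912). At the promoter peak (chr8:124949279-124950992) H3K18La was 1.11, 0.450 and 1.29 at 5 mM and 3.86, 2.01 and 1.57 at 25 mM, a change of 1.02 that did not pass (adjusted p = 0.111) except with voom (1.54, adjusted p = 0.0078), and H3K27Ac was 4.18 and 5.26 and then 20.3 and 12.7, a change of 1.67 (SE 0.48, adjusted p = 0.0058). The largest H3K27Ac change was at a peak in intron 1, 5.19 kb from the start, which was chosen after its values were seen: 0.683 and 2.22 at 5 mM and 6.98 and 7.95 at 25 mM, a change of 2.15 (SE 0.42, adjusted p = 8.63e-05). The 95% intervals of the marks overlapped at the upstream peak, from 0.77 to 2.32 in H3K18La and from 0.044 to 1.82 in H3K27Ac, and at the promoter, from -0.032 to 2.07 and from 0.73 to 2.62, and the difference between marks at single peaks was not tested. The only lower mean in H3K18La was at an intron 3 peak 36.4 kb from the start, with 2.01, 1.37 and 1.04 at 5 mM and 0, 1.74 and 0.955 at 25 mM, from at most 5 reads (adjusted p = 0.384).

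Egln3 (PHD3, itself a HIF target) was the weakest member in H3K27Ac. Its locus H3K27Ac was 1.52 and 1.77 at 5 mM and 2.03 and 2.06 at 25 mM. These groups did not overlap, but the change of 0.25 did not pass (SE 0.33, 95% interval -0.40 to 0.89, adjusted p = 0.494) and was smaller than at all but 10.1% of loci. Its H3K18La was 1.41, 1.84 and 2.03 at 5 mM and 2.48, 3.23 and 3.93 at 25 mM, a change of 0.71 (SE 0.21, adjusted p = 0.024) that lay below the median of all loci. It passed in 2 of 6 fits with a library left out, with adjusted p-values of 0.0136 to 0.075.

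The promoter peak of Egln3 (chr12:54202858-54203978) was low in H3K27Ac. H3K18La there was 1.69, 0.516 and 0.657 at 5 mM and 1.82, 0.658 and 1.20 at 25 mM, and H3K27Ac was 0.825 and 1.01 and then 1.36 and 0.961. Among promoter peaks it stood at the 52.4th percentile of H3K18La at 5 mM and the 27.3rd at 25 mM, and at the 14.3rd and 12.2nd of H3K27Ac. Neither change passed (0.28 and 0.22, adjusted p = 0.71 and 0.771). Another 4 peaks lay in intergenic sequence beyond the end of the gene, 36900 to 44153 bases from its start. Their means exceeded those of the promoter and intron peaks in H3K18La at both glucose levels and in H3K27Ac at 25 mM, but not in H3K27Ac at 5 mM, where the nearest of the 4 was at 0.598 and the promoter at 0.915. The strongest, at chr12:54164357-54164685, had an H3K18La of 4.32, 8.80 and 2.24 at 5 mM and 13.9, 16.4 and 9.22 at 25 mM, a change of 1.42 (SE 0.41, adjusted p = 0.0185). It rested on 1 to 15 reads per 5 mM library and passed in 4 of 6 fits with a library left out (0.99 to 1.88), losing the call without 25 mM replicate 1 or 2 (adjusted p = 0.0673 and 0.0765), and it also lost it with voom, without the minimum and under both scalings. Its H3K27Ac was 2.81 and 4.40 and then 4.65 and 4.91, a change of 0.39 (adjusted p = 0.484). The nearest of the 4 to the gene, chosen after its values were seen, was the only Egln3 peak that rose in H3K27Ac, from 1.20 and 0 to 2.87 and 4.18 (2.11, adjusted p = 0.000759), and its H3K18La change was -0.10 (adjusted p = 0.933). Its H3K27Ac rested on 0 to 2 reads per 5 mM library and 8 to 12 per 25 mM library. It reached the minimum mean RPKM of 1 only through the 25 mM libraries and was not recomputed with other settings, so no weight is put on this call. The farthest, 44.2 kb from the start, had the lowest H3K18La change, -0.33 (adjusted p = 0.732). These peaks carry the name Egln3 only as the nearest gene.

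Vhl, which encodes the subunit that binds the hydroxylated alpha subunits, had a single peak at its promoter (chr6:113623951-113625548). Its H3K18La, 0.890, 0.604 and 0.461 at 5 mM and 1.27, 1.08 and 1.48 at 25 mM, lay under the minimum for the test, with 1 to 7 reads per library, although the groups did not overlap. Its H3K27Ac was 3.76 and 3.73 at 5 mM and 8.26 and 7.50 at 25 mM. The change of 0.98 passed among loci (SE 0.43, adjusted p = 0.0386) and, for the same peak, not among peaks (adjusted p = 0.0758).

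At locus level the target genes Vegfa and Bnip3 both rose in H3K27Ac, and neither passed in H3K18La with all libraries in limma. Vegfa had 7 peaks, 2 of them in the promoter, and its H3K18La was 1.06, 0.996 and 1.49 at 5 mM and 4.00, 2.10 and 1.21 at 25 mM. The groups overlapped through 25 mM replicate 3, and the change of 0.70 did not pass (SE 0.36, 95% interval -0.13 to 1.54, adjusted p = 0.123). It passed without 25 mM replicate 3 (1.03, adjusted p = 0.0333) and with voom on the recovered reads (0.88, adjusted p = 0.0274), and it was 0.34 without 25 mM replicate 1 (adjusted p = 0.34). H3K27Ac was 1.76 and 2.38 at 5 mM and 5.83 and 3.32 at 25 mM, a change of 0.95 (SE 0.35, adjusted p = 0.0163) that lay below the median of all loci. The stronger promoter peak (chr17:46030222-46031649) lay over 359 coding bases and the starts of 3 transcripts, and its H3K18La was 1.66, 2.03 and 1.55 at 5 mM and 7.84, 3.44 and 2.60 at 25 mM, without overlap but short of the threshold (1.06, adjusted p = 0.0688), which it passed without 25 mM replicate 3 (adjusted p = 0.0498) and with voom (adjusted p = 0.0382). The peak over the main start (chr17:46032245-46032912) had an H3K27Ac of 2.77 and 1.69 and then 7.70 and 6.05, a change of 1.45 (SE 0.43, adjusted p = 0.0072), and an H3K18La change of 0.70 (adjusted p = 0.23). Away from the promoter, the largest H3K18La rise (0.54, 18.1 kb downstream) and fall (-1.30, in the last intron) rested on 0 to 3 reads per library, and neither passed. In all, 2 of the 7 Vegfa peaks rose in H3K27Ac, beside 33.9% of all peaks tested, and none of 5 tested in H3K18La, beside 37.3%.

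Bnip3 was the member with the largest difference in change between the marks. Its locus H3K18La was 1.61, 1.47 and 1.25 at 5 mM and 2.16, 1.46 and 0.859 at 25 mM. The 25 mM libraries lay on both sides of the 5 mM libraries, and the change was -0.01 (SE 0.28, 95% interval -0.67 to 0.65, adjusted p = 0.967), lower than at all but 4.52% of loci. Its sign turned when 5 mM replicate 1 or 25 mM replicate 3 was left out, and it lay between -0.25 and 0.24 over the 6 such fits. With median centring it was -0.86 (adjusted p = 0.0785) and with reads in peaks -1.11 (adjusted p = 0.153). H3K27Ac was 5.11 and 8.41 at 5 mM and 20.3 and 15.3 at 25 mM, a change of 1.36 (SE 0.50, adjusted p = 0.0152). The promoter peak (chr7:138908722-138910200) had an H3K18La of 0.962, 1.17 and 0.996 and then 2.41, 0.998 and 0.912, and an H3K27Ac of 3.44 and 5.66 and then 17.9 and 8.74, a change of 1.40 (adjusted p = 0.0162). The other peak, in intron 1 (chr7:138906563-138907438), had an H3K18La of 2.71, 1.98 and 1.68 at 5 mM and 1.74, 2.25 and 0.770 at 25 mM and an H3K27Ac of 7.92 and 13.1 and then 24.4 and 26.4, a change of 1.28 (adjusted p = 0.0419). H3K18La at the locus came from 4 to 18 reads per library at 5 mM and 6 to 14 at 25 mM.

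Whether the marks responded differently to glucose was tested as an interaction over all 10 libraries, taken as separate samples. None of the 7 members tested passed after adjustment, nor did any of 13610 loci (0.0% called), and at an unadjusted p under 0.05 limma called 905 loci, or 6.65%. Bnip3 was the only member among these, with a change lower by 1.37 in H3K18La than in H3K27Ac (SE 0.46, 95% interval -2.40 to -0.35, unadjusted p = 0.0137, adjusted p = 0.732). It kept its sign in all 10 fits that left out a library, between -1.71 and -1.04, with adjusted p-values of 0.429 to 0.982. The same difference was 0.53 for Hif1a (interval -0.73 to 1.80), 0.46 for Egln3 (interval -0.30 to 1.23) and -0.46 for Arnt (interval -1.77 to 0.85). These intervals hold differences of more than 1 on the log2 scale, so equal responses are not shown.

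The order of the loci by level differed between the marks. At 25 mM mean H3K18La fell from Hif1a (7.63) and Epas1 (6.69) to Egln3 (3.21), Egln1 (3.00), Vegfa (2.43), Arnt (1.92), Bnip3 (1.49) and Vhl (1.28). The ranges of neighbours overlapped everywhere except between Epas1, whose lowest library was at 6.45, and Egln3, whose highest was at 3.93. Mean H3K27Ac fell from Hif1a (32.9) to Bnip3 (17.8), Arnt (12.8), Epas1 (12.7), Egln1 (9.06), Vhl (7.88), Vegfa (4.58) and Egln3 (2.04). There, Arnt and Epas1 overlapped, as did Egln1 and Vhl, and the other neighbours did not. At 5 mM the H3K18La order was Epas1 (2.01), Egln3 (1.76), Hif1a (1.72), Bnip3 (1.45), Vegfa (1.18), Egln1 (1.14), Arnt (0.904) and Vhl (0.652), so that Bnip3 was 4th of 8 there and 7th at 25 mM, where its range overlapped those of Vegfa, Arnt and Vhl.

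The peaks were also counted one by one. Of the 9 promoter peaks, 8 were tested in H3K18La and 2 rose, those of Hif1a and Epas1, beside 33.3% of all promoter peaks, and 6 of 9 rose in H3K27Ac, beside 57.0%. Over all 52 peaks, 23 of 47 tested rose in H3K18La and 26 of 51 in H3K27Ac, beside 37.3% and 33.9% of all peaks tested. None fell, and 20 and 15 of these belonged to Epas1. Without H3K18La 25 mM replicate 2 or 3 the H3K18La count was 15, and in H3K27Ac it was 40 without 5 mM replicate 2, 0 without 25 mM replicate 1 and 1 without 25 mM replicate 2. With a block for the replicate number the H3K27Ac counts were 9 peaks and 0 member loci.

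The rest of the pathway was read from 2 lists. Of 13 other genes of the HIF machinery, such as the remaining hydroxylases, the ubiquitin ligase subunits and the coactivators, 11 were tested in H3K18La and 5 rose, and 10 of 13 rose in H3K27Ac, beside 57.0% and 62.2% of all loci. None fell, and the median changes were 1.10 and 1.25, beside 0.97 and 1.01 over all loci. The 3 largest H3K18La rises past the threshold are named. Crebbp, a histone acetyltransferase and HIF coactivator, rose from a mean of 1.05 to 3.65 in H3K18La (1.40, adjusted p = 0.00144), and in H3K27Ac it went from 5.94 to 11.6 without passing (adjusted p = 0.0701). Siah1a, a ubiquitin ligase for the prolyl hydroxylases, rose from 2.25 to 6.52 in H3K18La and from 7.03 to 18.2 in H3K27Ac (1.37 and 1.35, adjusted p = 0.000695 and 0.0163). Cited2, an inhibitor that competes with HIF for the coactivators, rose from 1.51 to 4.36 and from 4.68 to 13.0 (1.27 and 1.41, adjusted p = 0.00148 and 0.00923). Arnt2, the neuronal relative of Arnt, was at 1.24 and then 1.06 in H3K27Ac (-0.15, adjusted p = 0.693), and its H3K18La, too low for the test, was at 0.734 and then 1.01, without overlap of the groups.

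Of 27 known HIF targets 24 had a peak, and 17 of 23 tested rose in H3K18La and 18 of 24 in H3K27Ac, beside 57.0% and 62.2% of all loci. None fell, and the median changes were 1.01 and 1.28. The 3 largest H3K18La rises past the threshold are named. Ldha, which makes lactate from pyruvate, was 0.676, 1.43 and 0.840 in H3K18La at 5 mM and 11.2, 4.77 and 4.42 at 25 mM (2.21, SE 0.36, adjusted p = 0.00215), and it rose from a mean of 6.92 to 32.0 in H3K27Ac (2.15, adjusted p = 0.000492). Ndrg1, a stress-response gene, rose from 2.17 to 9.18 and from 7.38 to 21.5 (1.85 and 1.51, adjusted p = 0.0002 and 0.00849). Eno1, a glycolytic enzyme, rose from 1.34 to 5.56 and from 7.81 to 22.9 (1.69 and 1.45, adjusted p = 0.00642 and 0.0114). With reads in peaks none of these 3 or of the 3 machinery genes passed in either mark, with H3K18La changes down to 0.062 at Cited2 and 0.092 at Siah1a, and Crebbp turned negative in H3K27Ac. With median centring Ldha (1.37, adjusted p = 0.0396) and Ndrg1 (1.01, adjusted p = 0.00733) passed in H3K18La alone, and the other 4 in neither mark. In H3K27Ac, Ldha, Ndrg1, Eno1, Siah1a and Cited2 each passed in 4 of 8 other settings with all libraries. With single libraries left out, the H3K27Ac change was 1.64 to 2.65 at Ldha, 1.16 to 1.86 at Ndrg1 and 1.00 to 1.89 at Eno1. It was 1.02 to 1.67 at Siah1a and 1.10 to 1.73 at Cited2. The lowest change of the list in both marks was at Kdr. This gene, which encodes the main VEGF receptor of endothelium, was at 1.08 and then 1.18 in H3K18La (0.09, adjusted p = 0.751) and at 3.65 and then 3.48 in H3K27Ac (-0.04, adjusted p = 0.92). Flt1, its decoy relative, gave 0.34 and 0.69 (adjusted p = 0.294 and 0.0657), and Angpt2, a vessel-destabilising ligand, rose by 0.91 in H3K18La (adjusted p = 0.0161) and gave 0.15 in H3K27Ac (adjusted p = 0.689). Of the same list, Edn1 rose in both marks (0.88 and 0.76, adjusted p = 0.0499 and 0.0469). Adm rose in H3K18La (1.08, adjusted p = 0.00506) and gave 0.57 in H3K27Ac (adjusted p = 0.118). Edn1 and Adm rested on 1 to 6 reads per 5 mM library in H3K18La and 1 to 10 in H3K27Ac. Kdr, Flt1, Angpt2, Edn1, Adm and Arnt2 were named after their values were seen.

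**Figure D4:**
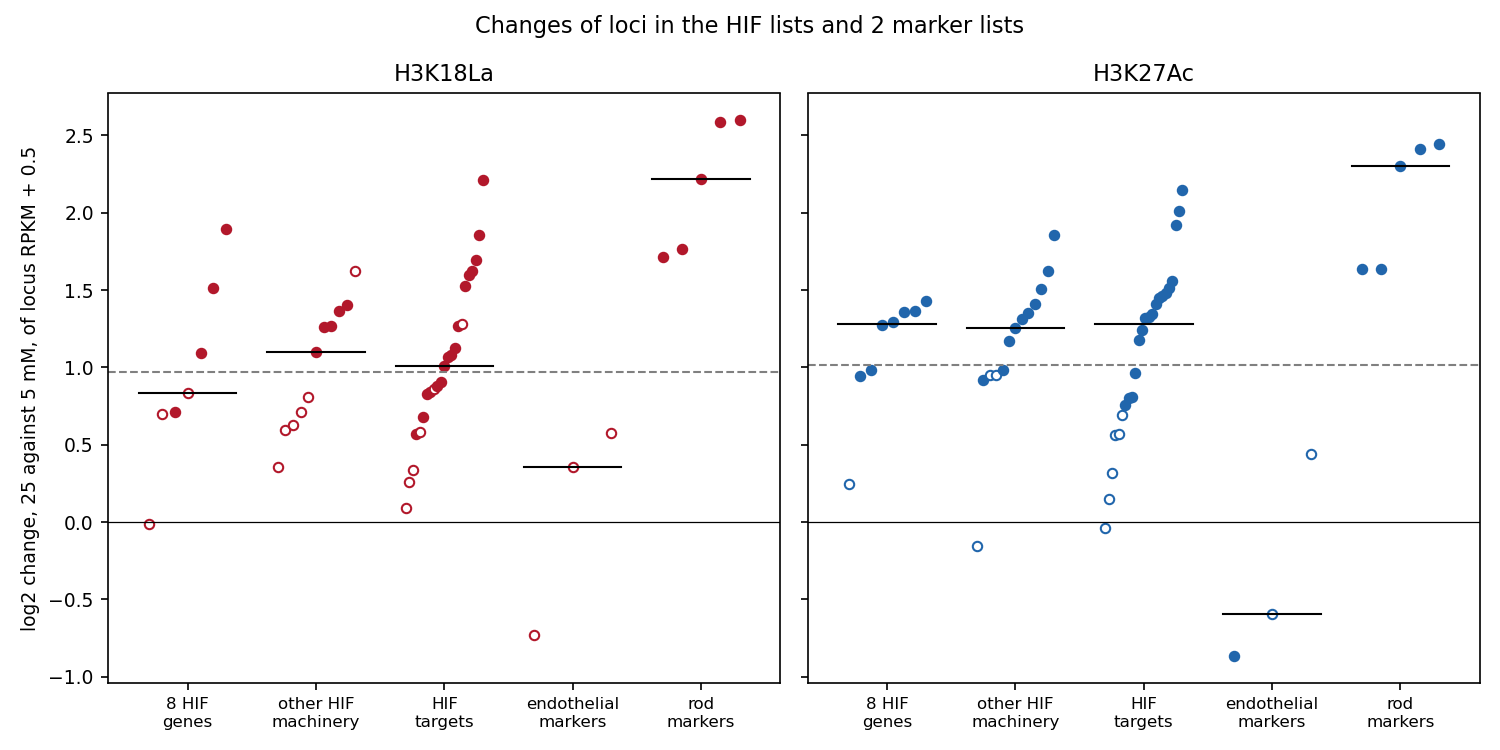
Log2 change of RPKM + 0.5 for each tested locus of the 8 HIF genes, the other HIF machinery, the HIF targets, endothelial markers and rod markers, in each mark. Filled points passed the adjusted threshold, short lines are list medians and the dashed line is the median of all loci. The HIF lists lie around the dashed line, the endothelial markers below it and the rod markers, at medians of 2.21 and 2.30, above it.

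For the 7 members with a mean RPKM of at least 1 in both marks, all but Vhl, the locus outside these lists with the most similar profile over the 10 libraries, by Pearson's r of log2(RPKM + 0.5), was Tmem237 for Hif1a (r = 0.993), Atp2b1 for Epas1 (0.998), Kdm2a for Arnt (0.995), Fosb for Vegfa (0.985), Scd2 for Egln1 (0.998), 1700109G15Rik for Egln3 (0.981) and Slc35b1 for Bnip3 (0.993). All profiles share the step between marks and between glucose levels. Loci within 0.01 of the best r numbered 362 for Egln1 and 226 for Epas1, but 4 for Vegfa and 5 for Egln3, of 13550 compared.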

How the data were processed

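The authors deposited RPKM values at 108253 consensus peaks for 10 CUT&Tag libraries, aligned to GRCm38. Peaks were called by MACS and named by ChIPseeker 1.34.1 for the closest gene, so a peak far from a start carries that name by position alone. The paper gives the same number for H3K18La consensus peaks merged over the ages of its developing retina series. The peaks may therefore come from those samples, with both marks of the explants read inside them. The source of the peak set was not checked. A second deposited table holds group means, fold changes and p-values from the authors' edgeR 3.40.2 comparison and was not used. The study's methods describe a transposase and an H3K27Ac antibody, whereas the labels' protocol names a nuclease and, for all 10 libraries, an antibody to H3K9me3, a repressive mark. The mark named for each sample was followed, and the antibody used was not checked from the data.

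Peak and locus RPKM (length-weighted over a gene's peaks) were tested per mark with limma 3.58.1 (R 4.3.3, trended variance) on log2(RPKM + 0.5), for features with a mean RPKM of at least 1, with Benjamini-Hochberg adjustment over all features and a threshold of 0.05. Every log2 change is on that scale, which understates changes of low features, and all p-values are two-sided. The difference between marks was an interaction term over all 10 libraries. RPKM steps gave whole reads for 100% of values (tolerance 0.01), which served for read numbers and an alternative with voom.

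Every member was named, with its promoter peak of highest RPKM, its largest H3K18La rise and fall, the 3 largest rises of each list and, for all but Vhl, which was under the minimum in H3K18La, the most similar locus. The members and lists were chosen with earlier results of these data known. The scripts were tested on simulated data. The study's methods speak of biological replicates, but the sources do not say which animals gave each library, and p-values measure the spread between libraries. All replicate pairs differed by more than sampling noise. Intervals cover the spread between libraries, and alternatives in pseudocount, minimum, scaling, replicate block and libraries left out were run.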

Additional observations from a re-analysis of the deposited data

How the results depend on the processing

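Changes of locus or peak count by setting are given as calls at an adjusted p below 0.05 in either direction for all features, against 24539 H3K18La peaks, 8499 H3K18La loci, 24698 H3K27Ac peaks and 10967 H3K27Ac loci as reported, and as higher members against 4 loci and 23 peaks in H3K18La and 7 loci and 26 peaks in H3K27Ac. Median centring gave 1040, 1385, 1144 and 269 calls, with 1 locus and 1 peak of the members higher in H3K18La and 0 loci and 1 peak in H3K27Ac, and scaling to reads in peaks gave 0 in all of these. Without a minimum on RPKM, H3K27Ac gave 0 peaks and 0 loci, members included. One fit of all 10 libraries gave 7607 H3K27Ac peaks, 10 of them members. Leaving out a library gave 15440 to 24137 H3K18La peaks and 6610 to 7857 loci, 10 to 38689 H3K27Ac peaks and 122 to 12890 loci, and of the members 3 to 5 loci and 15 to 24 peaks in H3K18La and 0 to 7 loci and 0 to 40 peaks in H3K27Ac. With 1 library left in an H3K27Ac group, that library is assumed to vary like the other group's. Voom on the recovered reads called 9333 H3K18La and 11301 H3K27Ac loci, with 6 and 7 members higher. Other pseudocounts and the average of 5 mM replicates 2 and 3, chosen after seeing the data, left the recomputed changes of member loci, promoter peaks and named genes on their side of the threshold, while the higher member peaks numbered 21, 25 and 24 in H3K18La with pseudocounts of 0.1 and 1 and the average, and 26 and 27 in H3K27Ac with these pseudocounts. Some single peaks given in the text were not recomputed. The causes of these differences were not tested.

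The replicate number as a block left 8071 H3K18La loci and 23 member peaks, but 7897 H3K27Ac peaks and 1069 loci, with 9 peaks and 0 loci of the members. Same-numbered libraries deviated together with r of 0.013 to 0.029 between glucose levels within a mark, and with -0.015 and -0.001 at 5 mM and 0.193 and 0.073 at 25 mM between marks. The number was therefore not used as a pairing, but the sources do not say which animals gave each library, and shared animals between the marks at 25 mM were not tested. The interaction of mark and glucose had 0 calls with and without the block.

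Single changes that turned sign did so mostly with the scaling. With median centring, H3K18La gave -0.010 at the Arnt, -0.15 at the Vegfa and -0.14 at the Egln3 locus, and -0.64 and -0.66 at the Egln3 and Bnip3 promoters. H3K27Ac gave -0.078 at the Vegfa, -0.78 at the Egln3, -0.044 at the Vhl and -0.075 at the Crebbp locus and -0.46 at the Egln3 promoter, and the difference between marks at Egln1 was 0.0063. With reads in peaks, H3K18La gave -0.19 at the Arnt, -0.41 at the Vegfa, -0.048 at the Egln1 and -0.49 at the Egln3 locus, and -0.0070, -0.16, -0.042, -0.70 and -0.79 at the Arnt, Vegfa, Egln1, Egln3 and Bnip3 promoters. H3K27Ac gave -0.15 at the Vegfa, -0.77 at the Egln3, -0.19 at the Vhl and -0.25 at the Crebbp locus, and -0.16, -0.66 and -0.19 at the Vegfa, Egln3 and Vhl promoters. Leaving out a library gave H3K18La changes of -0.25 to 0.24 at the Bnip3 locus and -0.084 to 0.44 at its promoter, and differences between marks of -0.00091 to 1.07 for Hif1a, -0.28 to 0.44 for Epas1, -1.04 to 0.13 for Arnt, -0.61 to 0.12 for Vegfa and -0.47 to 0.11 for Egln1. H3K18La at Arnt, with 2 to 11 reads per library, passed without 5 mM replicate 3 (1.16, adjusted p = 0.0227) and with voom (1.22, adjusted p = 0.0327), where the range over its other settings was 0.0636 to 0.991.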
